A study of Homo sapiens with 90 samples.

Results

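Subunits of the mitochondrial respiratory chain and of ATP synthase were followed in A673 cells, a single line from an Ewing sarcoma with an EWSR1-FLI1 fusion. The cells had been exposed for 24 h to fenbuconazole (a triazole fungicide), imazalil (an imidazole fungicide) or 2,4-D (a phenoxyacetic acid herbicide). The groups were, for each chemical, 9 concentrations that ran in steps of about 3-fold between 0.001 and 10 µM, and cells given the 0.2% DMSO vehicle alone, which the treated wells held as well. Each group had 3 arrays numbered 1 to 3, and a chemical's 27 treated and 3 DMSO columns had been normalized together as 1 set of 30 columns. Values were log2 expression per probe set, so a level has a meaning only inside its set, and across sets only differences are given. Members were the genes whose symbol starts with NDUFA, NDUFB, NDUFC, NDUFS, NDUFV, SDHA, SDHB, SDHC, SDHD, UQCR, COX4 to COX8 or ATP5. With 1 probe set per gene, that with the highest mean over all columns, this gave 96 of the 19774 genes measured by a probe set with a single symbol. Their other probe sets numbered 85, on 53 of the genes, and 54613 probe sets were tested in all.

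The respiratory chain moves electrons from NADH and succinate to oxygen through complexes I to IV of the inner mitochondrial membrane. Complexes I, III and IV pump protons, and the ATP synthase, complex V, uses the proton gradient to make ATP. Most subunits are encoded in the nucleus and the rest by mitochondrial DNA, and loss of subunits can impair assembly of a whole complex. Of the 96 genes, 71 encode subunits: 34 of complex I (6 core subunits and 28 accessory ones), 3 of complex II, 7 of complex III, 10 of complex IV and 17 of complex V. The other genes that share these prefixes were 6 tissue-restricted paralogs of complex IV subunits, 12 assembly factors, the supercomplex factor COX7A2L, the ATP synthase inhibitor ATP5IF1, and 5 pseudogenes, divergent transcripts or antisense RNAs. No mitochondrially encoded subunit was among the probe sets used (0 of 26 listed), and 5 further genes that the naming rule lists were not analysed here.

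Nuclear subunit genes carry recurrent promoter motifs. The promoters of the 4 genes that differed between replicate numbers in the 2,4-D set are shown here. That of SDHD, which holds both the NRF1 and the GABP motif, is shown as well. Each line is the 250 bases before the annotated start, 5′ to 3′ on the strand of the gene, from RefSeq (GRCh38.p14), and capitals mark matches to GCGCA followed by any base and GCGC (NRF1), CCGGAAG (the ETS factor GABP), AAGATGGCG (YY1) or GGGGCGGGG (SP1) on either strand.
NDUFA10 (chr2:240025343-240025592, minus strand): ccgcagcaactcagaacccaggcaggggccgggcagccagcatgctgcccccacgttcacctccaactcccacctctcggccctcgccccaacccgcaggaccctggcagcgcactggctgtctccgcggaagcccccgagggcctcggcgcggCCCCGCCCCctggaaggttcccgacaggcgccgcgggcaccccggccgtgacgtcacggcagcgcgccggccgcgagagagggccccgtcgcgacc
UQCRC1 (chr3:48609647-48609896, minus strand): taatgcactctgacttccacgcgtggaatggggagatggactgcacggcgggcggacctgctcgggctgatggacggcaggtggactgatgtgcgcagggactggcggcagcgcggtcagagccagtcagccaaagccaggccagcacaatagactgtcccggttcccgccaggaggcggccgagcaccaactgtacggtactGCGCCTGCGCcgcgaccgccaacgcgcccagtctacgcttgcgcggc
ATP5PO (chr21:33915805-33916054, minus strand): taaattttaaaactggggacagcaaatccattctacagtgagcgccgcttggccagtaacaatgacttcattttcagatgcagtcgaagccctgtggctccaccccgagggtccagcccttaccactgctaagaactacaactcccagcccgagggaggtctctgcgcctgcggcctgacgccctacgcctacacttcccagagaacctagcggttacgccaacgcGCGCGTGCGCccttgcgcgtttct
NDUFAF3 (chr3:49020202-49020451, plus strand): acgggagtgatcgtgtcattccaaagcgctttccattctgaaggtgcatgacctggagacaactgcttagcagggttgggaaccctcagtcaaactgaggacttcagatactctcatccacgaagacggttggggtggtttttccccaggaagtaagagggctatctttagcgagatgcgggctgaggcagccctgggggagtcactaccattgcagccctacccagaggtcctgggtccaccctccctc
SDHD (chr11:112086623-112086872, plus strand): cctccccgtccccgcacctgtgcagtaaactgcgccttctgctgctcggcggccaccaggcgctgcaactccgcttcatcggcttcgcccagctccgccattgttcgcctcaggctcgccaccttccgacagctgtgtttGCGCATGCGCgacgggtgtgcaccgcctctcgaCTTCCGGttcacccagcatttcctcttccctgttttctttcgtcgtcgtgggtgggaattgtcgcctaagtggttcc
NDUFA10, a complex I accessory subunit, had an SP1 match. UQCRC1, a core protein of complex III, and ATP5PO, a stalk subunit of complex V, each had an NRF1 match, at -47 and -24 from the start. NDUFAF3, a complex I assembly factor, had none of the 4 motifs. SDHD, a membrane anchor of complex II, had an NRF1 match and, closer to its start, a GABP match. A promoter was matched for 81 members and 61 of the 71 subunits. The NRF1 motif was in 13 of these 61 (21.3%), against 5.53% of all 27305 promoters of that length, and the GABP motif in 15 (24.6%), against 8.82%. Either of them was in 42.6% of the subunit promoters and in 13.4% of all. The YY1 motif was in 1 subunit promoter (1.64%, against 0.641% of all) and the SP1 motif in 9 (14.8%, against 15.4%). In promoters of cytosolic ribosomal proteins the shares were 10.1% for NRF1 and 29% for GABP. Both complex II promoters matched held an NRF1 motif, while 0 of 9 complex IV promoters did and 4 of these 9 held a GABP motif. A match describes the letters in this window and not a bound site.

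The subunits were bright in every set. The dimmest, NDUFS7, a core subunit that carries an iron-sulfur cluster, averaged 7.99, 8.85 and 8.88 in the fenbuconazole, imazalil and 2,4-D sets, above 91.4%, 91.4% and 91.1% of all probe sets. The paralogs with restricted expression lay at the other end, with set means between 1.80 (COX8C, fenbuconazole set) and 3.11 (COX6B2, imazalil set), where 42.9% of probe sets or fewer were dimmer. These are COX4I2, known from lung, COX6A2 and COX7A1, known from heart and skeletal muscle, and COX6B2, COX7B2 and COX8C, known from testis. The promoters of 1 such pair, COX6A1, the ubiquitous isoform, and COX6A2, are shown as an example, with the same motifs in capitals.
COX6A1 (chr12:120437863-120438112, plus strand): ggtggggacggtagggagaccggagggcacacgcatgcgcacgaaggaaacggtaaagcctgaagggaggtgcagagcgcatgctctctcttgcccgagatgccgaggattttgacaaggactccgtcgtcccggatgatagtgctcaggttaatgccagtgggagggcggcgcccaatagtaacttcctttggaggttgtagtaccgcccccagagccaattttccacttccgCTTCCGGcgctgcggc
COX6A2 (chr16:31428361-31428610, minus strand): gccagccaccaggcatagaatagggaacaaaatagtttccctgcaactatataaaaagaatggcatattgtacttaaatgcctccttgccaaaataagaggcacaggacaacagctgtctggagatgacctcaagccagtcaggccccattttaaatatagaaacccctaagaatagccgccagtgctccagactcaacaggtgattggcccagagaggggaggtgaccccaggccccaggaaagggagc
COX6A1 had a GABP match at -16 from its start and COX6A2 had none of the 4 motifs. Other genes of complex IV did not follow this pair. The dim COX8C had an NRF1 match, and the bright COX4I1, COX5A, COX7A2, COX7B and COX7C had none of the 4. An NRF1 or GABP match was in 4 of 9 promoters of complex IV subunits and in 1 of 4 of their paralogs.

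The arrays themselves were checked once. Array medians lay between 2.76 and 2.83 in the fenbuconazole set, 3.34 and 3.39 in the imazalil set and 3.40 and 3.46 in the 2,4-D set. Of 10 Ewing sarcoma markers 9 were measured, and in the DMSO arrays each of the 9 was above at least 81.2% of probe sets, with NKX2-2, a direct target of the fusion, at 8.50, 9.24 and 9.34 in the 3 sets. The hepatocyte markers ALB, APOA1, TTR, FGB and SERPINA1 lay between 2.47 and 3.62. Markers of mammary epithelium were mixed. KRT18 was bright, at 10.2, 10.8 and 10.9 in the fenbuconazole, imazalil and 2,4-D sets, and KRT8 had 5.46, 6.04 and 6.17. ESR1 had 3.39, 4.5 and 4.53, and GATA3 had 4.12, 5.43 and 5.28. KRT19 and TFF1 lay between 2.41 and 3.08. DMSO columns with the same number had r = 0.999 between the imazalil set and the 2,4-D set, and r of 0.867 to 0.878 once each set's means had been taken off, so they were counted as the same 3 arrays. The DMSO columns of the fenbuconazole set did not match them (0.105 to 0.198 for the same number), although the sample descriptions give the vehicle columns of the 3 sets the same numbers. The titles also call these columns of all 3 sets common DMSO controls, and the study's methods describe 3 vehicle controls shared within a cell line's experiment. The fenbuconazole columns go against this by their values, for a reason that was not tested, and 87 distinct arrays were counted by value. Differences from DMSO with fenbuconazole rest on these columns, and those between 10 µM and the other concentrations do not.

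In bulk RNA, fewer cells and less RNA per cell cannot be told apart. The first question was whether any concentration moved the complexes relative to DMSO. At no concentration of any chemical did a member pass (limma, adjusted p under 0.05 over all probe sets, 0 of 96 in each of 27 contrasts). Over all probe sets 1 was called in 1 of these contrasts (0.00183% at 0.003 µM fenbuconazole) and 0% in the others, including 10 µM of each chemical. At 10 µM, 0 of 96 members had an unadjusted p under 0.05 with fenbuconazole, 3 with imazalil and 3 with 2,4-D, against 7%, 4.75% and 3.85% of all probe sets. The F test over all 9 concentrations called 0 members (0, 1 and 4 at an unadjusted p under 0.05, against 4.73%, 3.38% and 3.77%), and so did the slope on log10 of the concentration (1, 3 and 2, against 4.3%, 4.92% and 3.67%). Against the other 8 concentrations of the same chemical, a comparison that uses no DMSO array, 10 µM again called 0 members (limma; 1, 1 and 5 at an unadjusted p under 0.05, against 6.35%, 6.22% and 6.91%), while 0.0165%, 0.022% and 0.00366% of all probe sets passed.

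The mean of each complex stayed close to its DMSO mean at every concentration. Averaged over the 3 arrays of a concentration, complex I lay between -0.06 and 0.01 from DMSO on the log2 scale over the 3 chemicals and complex IV between -0.06 and 0.03. Complex V lay between -0.04 and 0.05 and complex III between -0.05 and 0.04. Complex II, with 3 genes, had the widest range, from -0.03 to 0.09 with fenbuconazole. At 10 µM 2,4-D complex I averaged -0.03 ± 0.03 and complex IV -0.04 ± 0.04 relative to the DMSO mean, where the DMSO arrays themselves had SDs of 0.04 and 0.02 (SD, n = 3 arrays each). The complex I values at 10 µM, -0.05 to -0.00, overlapped those of DMSO, -0.02 to 0.05, and the complex IV values, -0.07 to -0.00, also overlapped those of DMSO, -0.02 to 0.02. Some groups at lower concentrations did not overlap DMSO. With fenbuconazole, complex IV had -0.0701 to -0.032 at 0.01 µM and 0.0231 to 0.0414 at 0.3 µM, against -0.0046 to 0.00252. Complex I had -0.101 to -0.0394 at 0.01 µM, against -0.0168 to 0.0296. At 0.3 µM imazalil, complex III had 0.012 to 0.0736, against -0.00528 to 0.00961, and complex II also lay above DMSO. These are examples, and means of complexes were not tested.

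**Figure D1:**
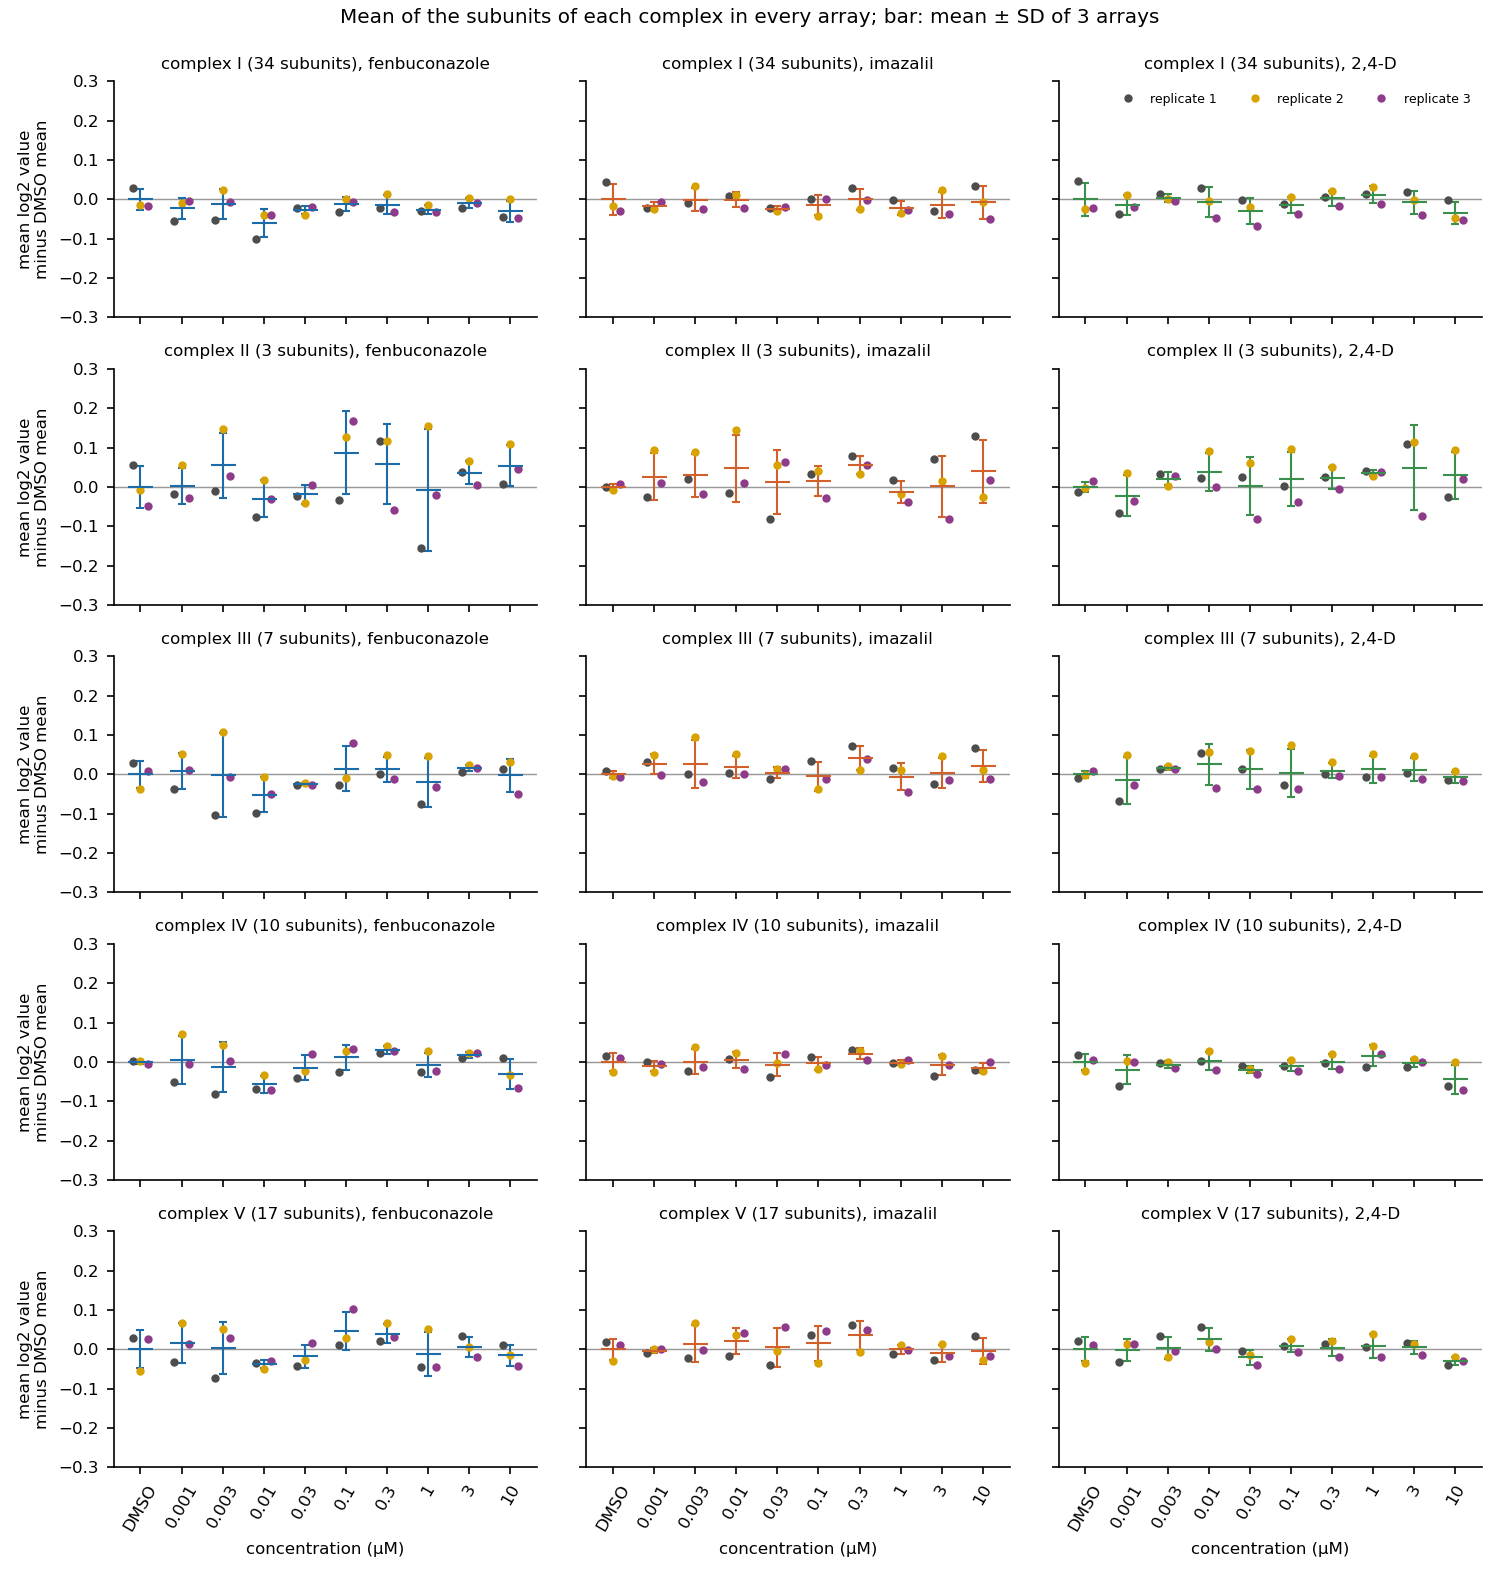
Mean log2 value of the subunits of each complex in every array minus the DMSO mean of its set (vertical axis) by concentration in µM (horizontal axis, DMSO at the low end), with 1 point per array coloured by replicate number and bars for the mean ± SD of 3 arrays. All means over 3 arrays lie between -0.06 and 0.09, and the widest scatter is that of complex II in the fenbuconazole set.

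The intervals show what size of change these arrays could have missed. The median standard error of a subunit's difference between 10 µM and DMSO was 0.088 with fenbuconazole, 0.0744 with imazalil and 0.067 with 2,4-D on the log2 scale. The 95% interval lay inside a 1.5-fold change in either direction for all 71 subunits with each chemical, and inside a 1.25-fold change for 65, 70 and 70. Subunits varied less between arrays of a group than probe sets in general, with median within-group SDs of 0.0816, 0.0705 and 0.0616 in the fenbuconazole, imazalil and 2,4-D sets, against 0.162, 0.148 and 0.146 over all probe sets. Cytosolic ribosomal proteins, a list taken for comparison, had SDs of 0.0709, 0.0639 and 0.0525.

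At 10 µM, the direction of the small differences was close to even with fenbuconazole (44 members higher and 52 lower) and with imazalil (44 and 52). With 2,4-D, 28 members were higher and 68 lower, with a median of -0.03 against -0.01 for all probe sets, of which 25772 were higher and 28841 lower. Among the subunits these counts were 7 higher and 27 lower in complex I, 2 and 1 in complex II, 3 and 4 in complex III, 1 and 9 in complex IV, and 3 and 14 in complex V. Cytosolic ribosomal proteins had 26 higher and 50 lower with the same chemical, with a median of -0.02. Members share arrays and are not independent, so these counts carry no test. The 3 arrays at 10 µM did not overlap the 3 DMSO arrays for 3 members with fenbuconazole (1 above and 2 below DMSO), 6 with imazalil (2 and 4) and 10 with 2,4-D (1 and 9), of 96, where 11.2%, 7.97% and 7.01% of all probe sets did not overlap. With 3 µM 2,4-D the count was 13 (6 above and 7 below), against 8.99%, and with 0.1 µM fenbuconazole 12 (5 and 7), against 12.3%.

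**Figure D2:**
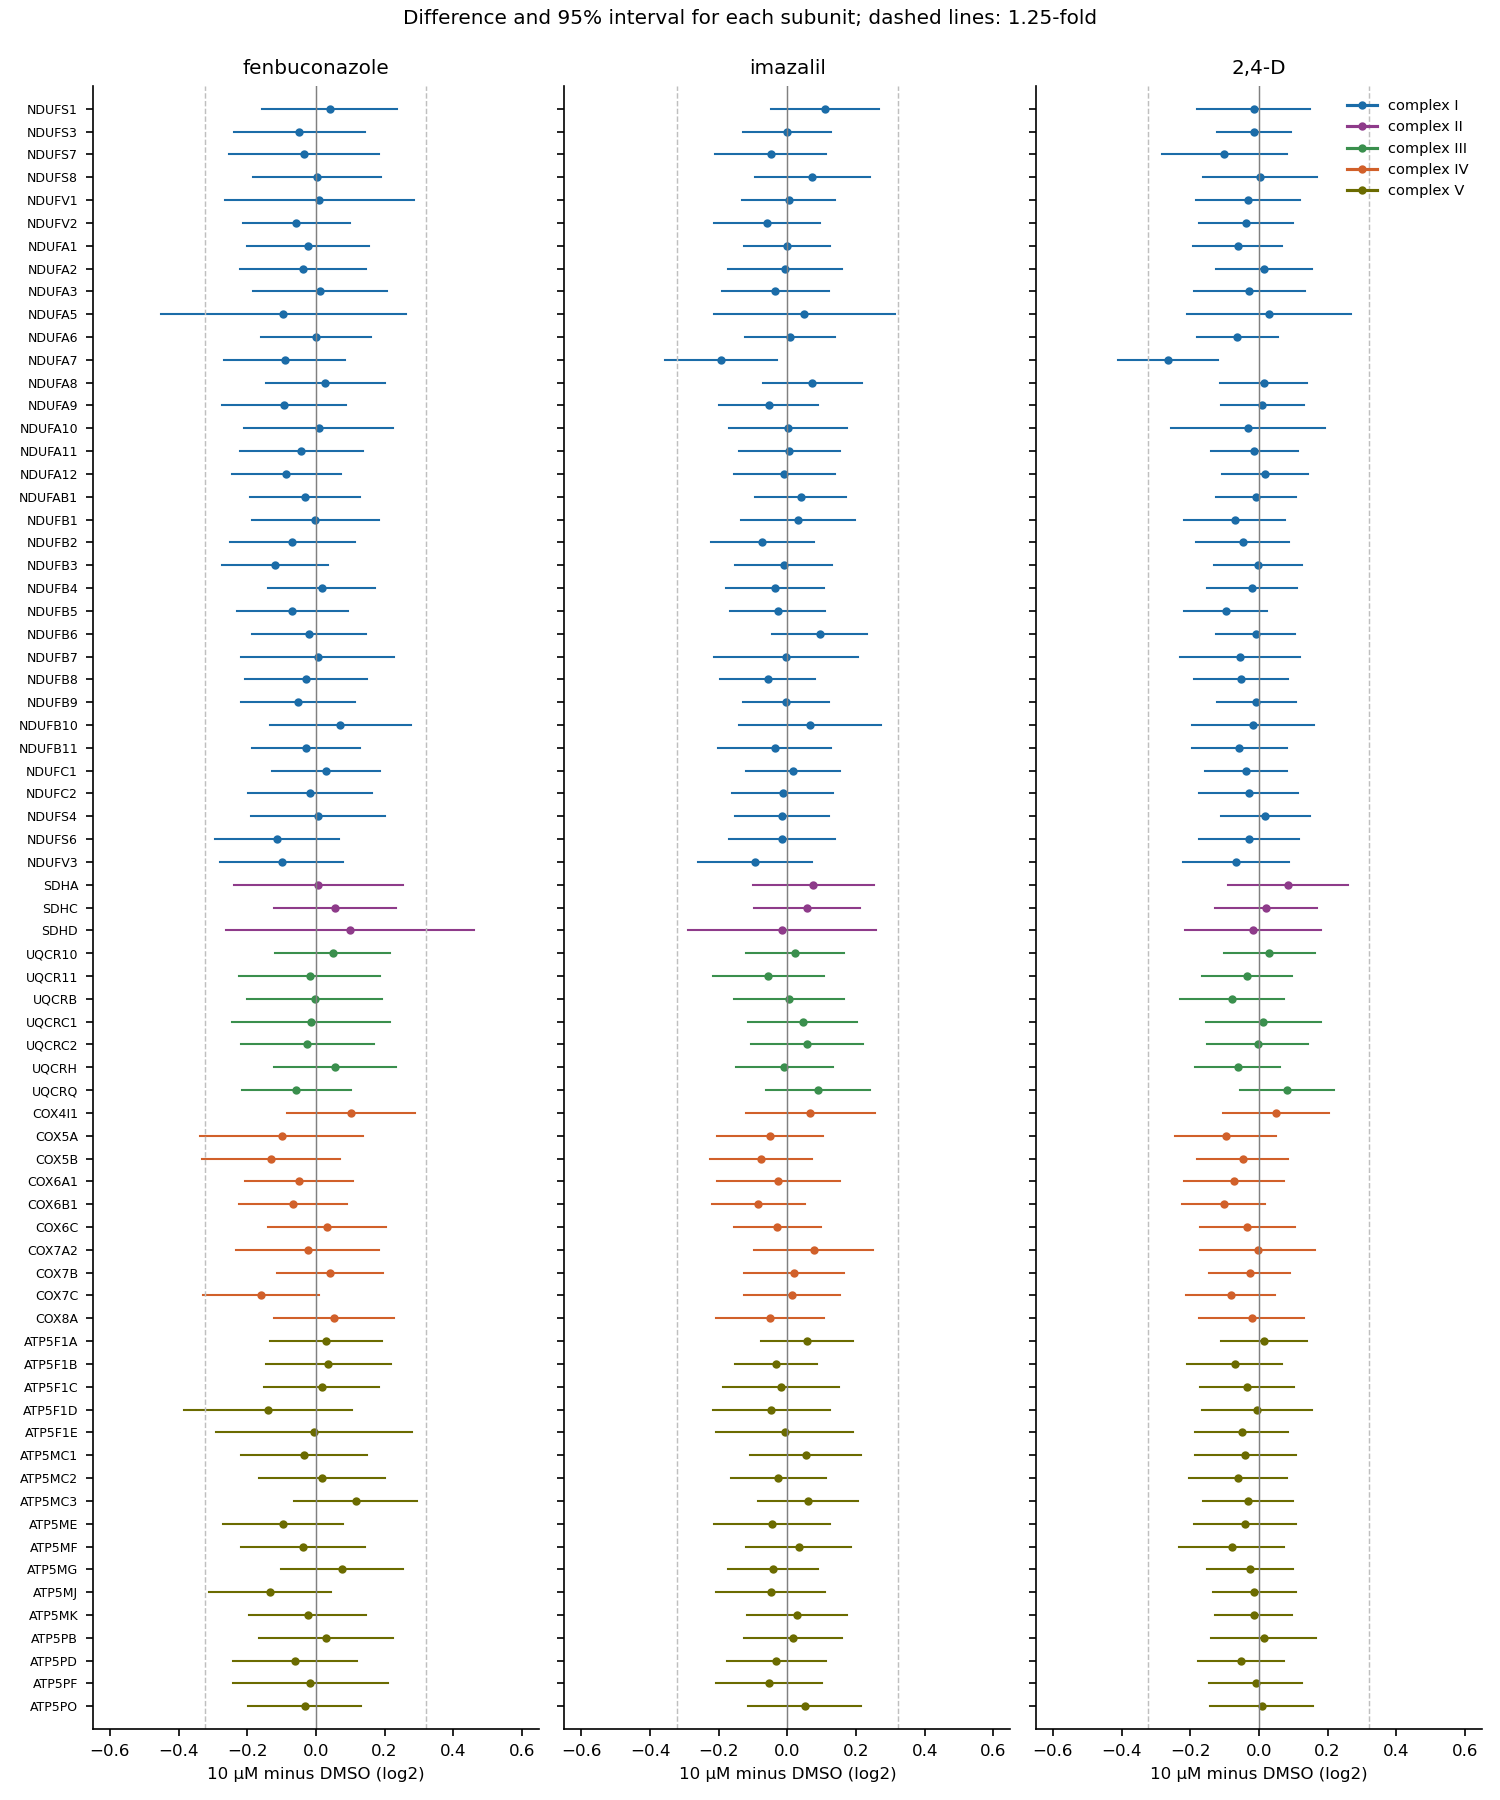
Difference between 10 µM and DMSO on the log2 scale (horizontal axis) with its 95% interval for each of the 71 subunits (vertical axis, coloured by complex), 1 panel per chemical, with dashed lines at a 1.25-fold change. All intervals cross 0 but those of NDUFA7 with imazalil and with 2,4-D, and 65, 70 and 70 of 71 stay inside the dashed lines with fenbuconazole, imazalil and 2,4-D.

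NDUFA7, an accessory subunit of complex I, had the largest difference from DMSO of any of the 71 subunits at 10 µM. It had 9.60, 9.42 and 9.48 in replicates 1 to 3 at 10 µM 2,4-D, against 9.88, 9.72 and 9.70 in DMSO. All 3 treated arrays lay below all 3 DMSO arrays. The difference of -0.26 (95% interval -0.41 to -0.12) had an unadjusted p = 0.000883 in limma and an adjusted p = 0.909, and against the other 8 concentrations it was -0.18 (-0.28 to -0.08, adjusted p = 0.358 in limma). The concentrations from 0.001 to 3 µM averaged between 9.62 and 9.74, and 10 µM, at 9.50, was the lowest group of the set.

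With imazalil NDUFA7 had 9.47, 9.46 and 9.27 at 10 µM, against 9.75, 9.56 and 9.47 in DMSO. These ranges overlapped only narrowly, and the difference was -0.19 (-0.36 to -0.03, adjusted p = 0.997 in limma). With fenbuconazole it had 8.65, 8.59 and 8.71 at 10 µM, against 8.71, 8.80 and 8.71 in DMSO, a difference of -0.09 (-0.27 to 0.08). Against the other 8 concentrations of the same chemical, NDUFA7 at 10 µM differed by -0.13 with fenbuconazole and by -0.08 with imazalil, and neither passed. The imazalil and 2,4-D differences from DMSO share their DMSO arrays and so are not independent. The other, dimmer probe set of NDUFA7 differed at 10 µM by 0.04 with 2,4-D, 0.08 with imazalil and 0.37 with fenbuconazole, so it did not share the direction.

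Core subunits of complex I all lay within 0.11 of DMSO at 10 µM. NDUFS1, which carries iron-sulfur clusters, had the largest of these with imazalil, at 9.22, 9.30 and 9.32 for 10 µM, against 9.23, 9.12 and 9.16 in DMSO (0.11, -0.05 to 0.27). Its groups overlapped. With 2,4-D, NDUFS7 had 8.89, 8.84 and 8.77 at 10 µM, against 8.94, 8.96 and 8.90 in DMSO, without overlap, and the interval of the difference included 0 (-0.10, -0.28 to 0.08). The flavoprotein subunit NDUFV1, which accepts electrons from NADH, differed by 0.01, 0.00 and -0.03 with fenbuconazole, imazalil and 2,4-D, NDUFV2 by -0.06, -0.06 and -0.04, and NDUFS3 by -0.05, -0.00 and -0.02. NDUFS8 differed by 0.00, 0.07 and 0.00. Among accessory subunits the extremes with fenbuconazole were NDUFB3 (-0.12, -0.27 to 0.03) and NDUFB10 (0.07, -0.13 to 0.28), neither past the test, and with 2,4-D the highest was NDUFA5 (0.03).

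In complex II, which oxidizes succinate and is also an enzyme of the tricarboxylic acid cycle, SDHD was the most variable subunit. In the fenbuconazole set it had 8.18, 7.98 and 8.48 in DMSO, 8.29, 8.55 and 8.99 at 0.1 µM, 8.75, 8.52 and 8.43 at 0.3 µM, 7.72, 8.64 and 8.24 at 1 µM, and 8.32, 8.30 and 8.32 at 10 µM. The values at 0.1 and 0.3 µM were mostly above DMSO and overlapped it, and those at 1 µM included the lowest value of the gene in this set. The difference was 0.40 (SE 0.18) at 0.1 µM (adjusted p = 0.588 in limma), 0.35 (SE 0.18) at 0.3 µM and 0.10 (-0.26 to 0.46) at 10 µM. SDHA, the flavoprotein that binds succinate, differed from DMSO at 10 µM by 0.01, 0.08 and 0.09 with fenbuconazole, imazalil and 2,4-D, and SDHC, the other membrane anchor, by 0.06, 0.06 and 0.02.

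NDUFA5, a complex I accessory subunit, had a similar scatter. It had 8.98, 9.26 and 9.59 at 0.1 µM fenbuconazole, against 8.78, 8.58 and 9.29 in DMSO. The groups overlapped (0.39, SE 0.17, adjusted p = 0.589 in limma). At this concentration 6 of 96 members had an unadjusted p under 0.05 (7.97% of all probe sets did), the others being ATP5F1E, ATP5PF, COX4I2 and SDHAF3. Over the 3 chemicals, all 9 concentrations and all 71 subunits, no difference from DMSO reached 0.5 on the log2 scale, and the 3 beyond 0.35 were those of NDUFA5 at 0.1 µM and of SDHD at 0.1 and 0.3 µM fenbuconazole.

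**Figure D3:**
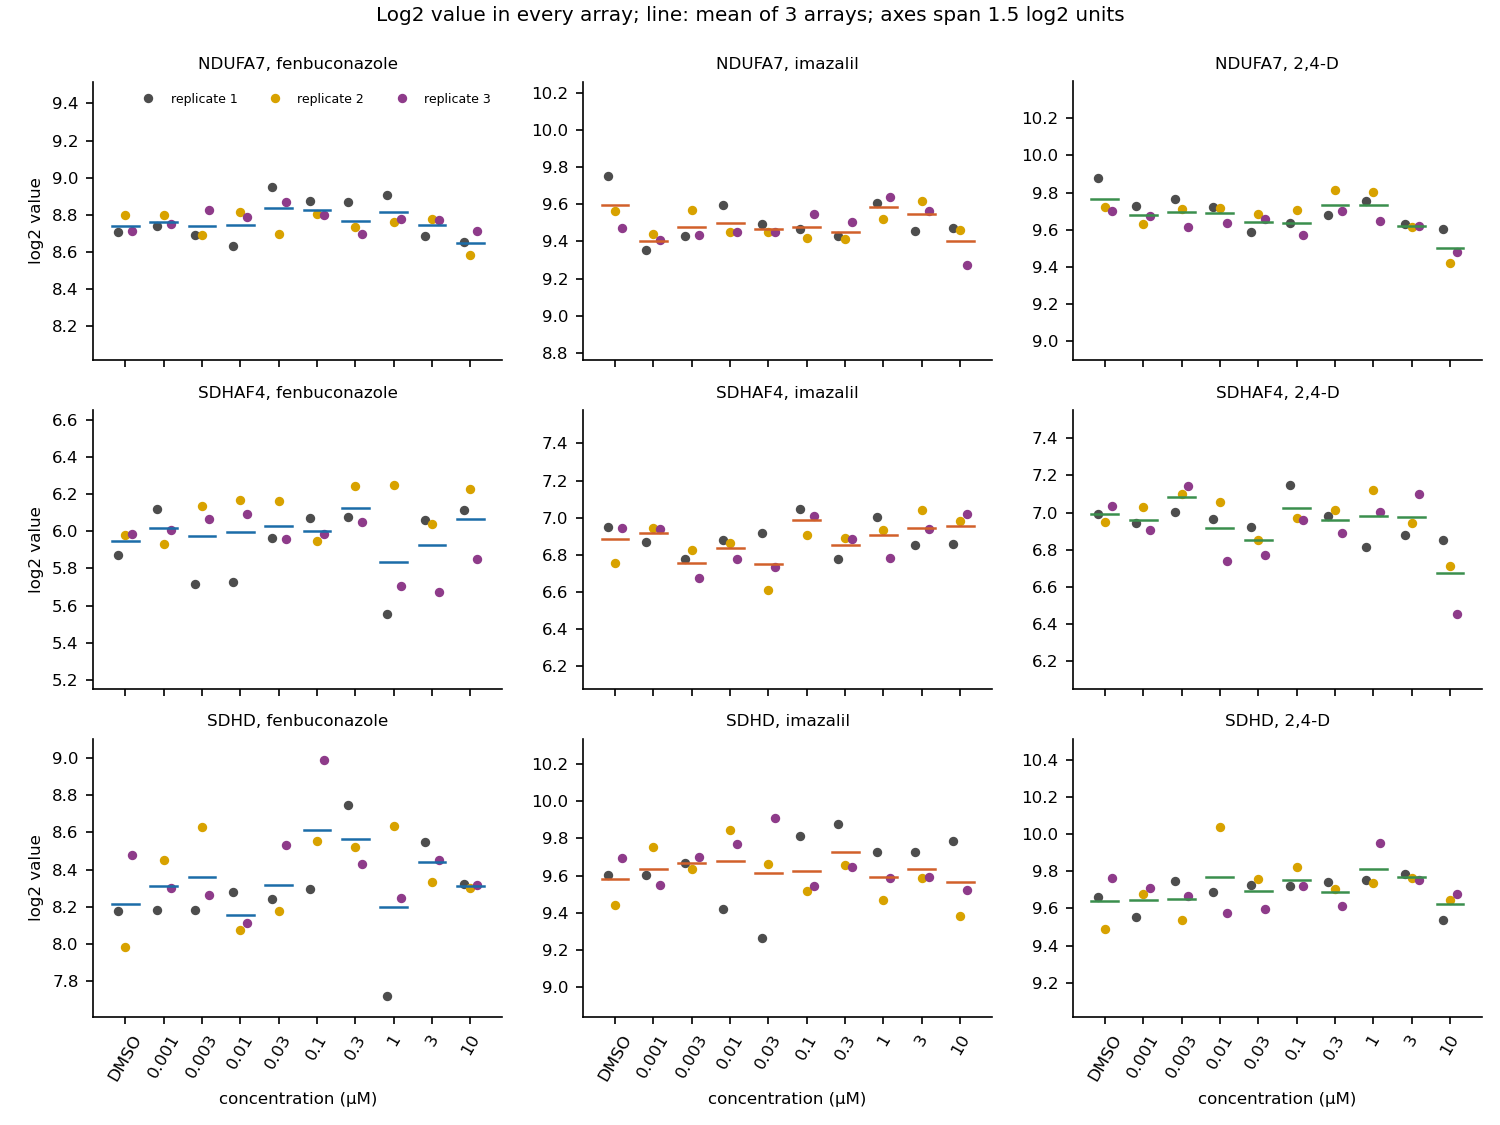
Log2 value of NDUFA7, SDHAF4 and SDHD in every array (vertical axis, each spanning 1.5 log2 units) by concentration in µM (horizontal axis, DMSO at the low end), with 1 panel per gene and chemical, points coloured by replicate number and a line at the mean of 3 arrays. NDUFA7 and SDHAF4 are lowest at 10 µM in the 2,4-D panels, with means of 9.50 and 6.67, and SDHD is most scattered in the fenbuconazole panel.

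Complex III passes electrons from ubiquinol to cytochrome c. Its core proteins UQCRC1 and UQCRC2 differed at 10 µM from DMSO by -0.01 and -0.02 with fenbuconazole, 0.04 and 0.06 with imazalil and 0.01 and -0.00 with 2,4-D. UQCRQ, a small subunit, was the highest of the complex with imazalil and 2,4-D. It had 11.22, 11.27 and 11.27 at 10 µM imazalil, against 11.20, 11.21 and 11.09 in DMSO, and 11.32, 11.28 and 11.24 at 10 µM 2,4-D, against 11.22, 11.23 and 11.15 in DMSO. Neither pair of groups overlapped, and both intervals included 0 (0.09, -0.06 to 0.24, and 0.08, -0.06 to 0.22), with the DMSO arrays shared. With fenbuconazole UQCRQ was the lowest of the complex (-0.06, -0.21 to 0.10) and UQCRH, which binds cytochrome c1, the highest (0.06). The lowest were UQCR11 with imazalil (-0.06) and UQCRB with 2,4-D (-0.08).

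In complex IV, cytochrome c oxidase, COX7C was the subunit farthest from DMSO with fenbuconazole. It had 11.36, 11.13 and 11.16 at 10 µM, against 11.36, 11.37 and 11.40 in DMSO, a difference of -0.16 (-0.33 to 0.01). Replicates 2 and 3 lay below all DMSO arrays and replicate 1 did not. COX6B1, which faces the intermembrane space, was lowest with imazalil (-0.09, -0.22 to 0.05) and with 2,4-D (-0.10, -0.22 to 0.02). COX4I1, the ubiquitous regulatory isoform, differed by 0.10, 0.07 and 0.05 with fenbuconazole, imazalil and 2,4-D, COX5A by -0.10, -0.05 and -0.10, and COX5B by -0.13, -0.08 and -0.05. None of these passed. COX6A1 (-0.05, -0.03 and -0.07), COX7A2 (-0.02, 0.08 and -0.00), COX7B (0.04, 0.02 and -0.03) and COX8A (0.05, -0.05 and -0.02) lay within 0.08 of DMSO. Of the dim paralogs, COX6B2 had 2.97, 2.80 and 2.96 at 10 µM imazalil, against 3.10, 3.26 and 3.58 in DMSO (-0.40, -0.71 to -0.10, adjusted p = 0.963 in limma), without overlap. The other 5 paralogs differed by between -0.19 and 0.20 at 10 µM over the 3 chemicals.

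In complex V, ATP5F1A and ATP5F1B, which form the catalytic head, differed at 10 µM by 0.03 and 0.04 with fenbuconazole, 0.06 and -0.03 with imazalil and 0.02 and -0.07 with 2,4-D. The genes for the c subunit of the rotor ring, ATP5MC1, ATP5MC2 and ATP5MC3, differed by -0.03, 0.02 and 0.12 with fenbuconazole, 0.05, -0.03 and 0.06 with imazalil and -0.04, -0.06 and -0.03 with 2,4-D. The extremes were ATP5F1D, a subunit of the central stalk, with fenbuconazole (-0.14, -0.39 to 0.11) and ATP5MC3 with the same chemical (0.12, -0.06 to 0.30). The lowest were ATP5PF with imazalil (-0.05) and ATP5MF with 2,4-D (-0.08), both parts of the stator side of the enzyme. The inhibitor ATP5IF1 differed by 0.02, 0.07 and 0.02 with fenbuconazole, imazalil and 2,4-D, and COX7A2L, which joins complexes III and IV into supercomplexes, by 0.13, 0.07 and 0.04.

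Assembly factors help build the complexes and are not part of them. SDHAF4, which helps assemble complex II, had 6.85, 6.71 and 6.45 at 10 µM 2,4-D, against 6.99, 6.95 and 7.04 in DMSO. All 3 treated arrays were below all 3 DMSO arrays and the spread at 10 µM was the larger. The difference was -0.32 (-0.52 to -0.12, unadjusted p = 0.00321 and adjusted p = 1 in limma), -0.19 without replicate 3, and -0.30 against the other 8 concentrations (-0.45 to -0.14, adjusted p = 0.268 in limma), whose means lay between 6.85 and 7.08. With imazalil SDHAF4 differed by 0.07 (-0.10 to 0.25) and with fenbuconazole by 0.12 (-0.19 to 0.42). NDUFAF3 had 7.69, 7.61 and 7.51 at 10 µM imazalil, against 7.96, 7.70 and 7.79 in DMSO, without overlap (-0.22, -0.41 to -0.03). It differed by -0.18 (-0.37 to 0.02) with fenbuconazole and by -0.08 (-0.29 to 0.12) with 2,4-D. Its slope on log10 of the concentration was -0.05 per 10-fold step with fenbuconazole (unadjusted p = 0.00249, adjusted p = 1 in limma) and -0.03 with imazalil. SDHAF1, another assembly factor of complex II, had a slope of 0.06 per 10-fold step with 2,4-D (unadjusted p = 0.00214, adjusted p = 1 in limma).

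Other lists, of mitochondrial genes and of cytosolic ribosomal proteins, also held no gene that passed at 10 µM (limma). Of all probe sets, 7%, 4.75% and 3.85% had an unadjusted p under 0.05 with fenbuconazole, imazalil and 2,4-D. This was so for 50 assembly factors, which include the 12 above (1, 2 and 2 at an unadjusted p under 0.05 with fenbuconazole, imazalil and 2,4-D), 18 import genes (0, 1 and 0), 11 genes of the tricarboxylic acid cycle (0, 0 and 0), 15 biogenesis regulators (0, 0 and 0), 75 mitochondrial ribosomal proteins (4, 1 and 0), 76 cytosolic ribosomal proteins (0, 3 and 1) and the electron carriers CYC1 and CYCS, cytochromes c1 and c (0, 0 and 0). Picked out after all lists and chemicals had been seen, the import genes with imazalil were the most one-sided of the lists of more than 2 genes, with 1 higher and 17 lower and a median of -0.05, where all probe sets had 27997 higher and 26616 lower.

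The 3 chemicals were then compared at the matched concentration of 10 µM, each relative to its own DMSO columns, in 3 pairs adjusted together over all probe sets. Fenbuconazole and imazalil are azoles with a triazole and an imidazole ring, and 2,4-D is a chlorinated phenoxy acid. No member and no other probe set passed for any pair (limma, 0% of all probe sets), and 1, 2 and 2 of 96 members had an unadjusted p under 0.05 for fenbuconazole minus imazalil, fenbuconazole minus 2,4-D and imazalil minus 2,4-D, against 4.56%, 5.06% and 0.859% of all probe sets. The third of these fits counts the shared DMSO arrays of imazalil and 2,4-D as separate samples. With those arrays taken as fixed, imazalil minus 2,4-D called 0 members and 2 probe sets in all (limma), and 5 of 96 members had an unadjusted p under 0.05, against 5.43% of all probe sets. In the first fits, for 92 of 96 members in each pair, the interval of the difference lay inside a 1.5-fold change, and for 74, 70 and 74 inside a 1.25-fold change. For the other 4 members in each pair, the interval reached past 1.5-fold.

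SDHAF4 had the smallest p among the members for the pairs with 2,4-D, at 0.44 (0.11 to 0.76) for fenbuconazole minus 2,4-D and 0.39 (0.07 to 0.71) for imazalil minus 2,4-D (adjusted p = 1 for both in limma). With the shared DMSO arrays taken as fixed, its imazalil minus 2,4-D difference was 0.39 (0.15 to 0.63, adjusted p = 0.503 in limma). COX7C differed by -0.17 (-0.34 to -0.00) for fenbuconazole minus imazalil. NDUFA7, which was below DMSO with all 3 chemicals, differed by 0.10 (-0.09 to 0.30), 0.17 (-0.02 to 0.37) and 0.07 (-0.13 to 0.27) for the 3 pairs in the order above. At each of the 8 lower concentrations the 3 pairs also called 0 of 96 members and 0 of 54613 probe sets (limma). Between 0 and 9 members had an unadjusted p under 0.05, most for fenbuconazole minus imazalil at 0.1 µM. The share of all probe sets at that threshold was not counted there. The imazalil minus 2,4-D fits again count the shared DMSO arrays as separate samples.

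Replicate numbers were compared last, with the concentration groups as covariates. In the study's methods replicates come from separate cell batches, but no label ties a number to a batch. Each number also had its own mark in the sample descriptions, whose meaning is not given there, and what it stands for cannot be told apart from the number. In the 2,4-D set 4 of 96 members differed between replicate numbers (limma F test, adjusted p under 0.05), against 3.63% of all probe sets, and 21 had an unadjusted p under 0.05, against 18.9%. In the imazalil set 0 members passed, against 2.13%, with 11 at an unadjusted p under 0.05 (16.7%), and in the fenbuconazole set 0 passed, against 0.837%, with 8 (11.4%). The 3 pairwise differences of the 2,4-D set called 0.868% (3 minus 1), 2.7% (3 minus 2) and 1.76% (2 minus 1) of all probe sets.

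The 4 genes of the 2,4-D set belong to complexes I, III and V and to the assembly factors, and their promoters are those printed above. NDUFA10 lay between 9.05 and 9.27 (median 9.14) in the 10 columns of replicate 3, between 9.19 and 9.36 (median 9.31) in replicate 2 and between 9.29 and 9.49 (median 9.38) in replicate 1. Replicate 3 did not overlap replicate 1. Its difference was -0.23 (adjusted p = 0.0072 in limma) from replicate 1 and -0.16 (adjusted p = 0.0118) from replicate 2. Of the 4 dimmer probe sets of NDUFA10, none passed in this set.

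UQCRC1 lay between 10.03 and 10.24 (median 10.14) in replicate 3, 10.24 and 10.35 (median 10.28) in replicate 2 and 10.06 and 10.32 (median 10.21) in replicate 1. Replicate 3 barely reached replicate 2, and the difference of -0.14 between them passed (adjusted p = 0.0165 in limma). ATP5PO lay between 11.22 and 11.31 (median 11.26) in replicate 3, 11.26 and 11.35 (median 11.32) in replicate 2 and 11.32 and 11.46 (median 11.39) in replicate 1. Replicate 3 lay wholly below replicate 1 (-0.13, adjusted p = 0.0301 in limma), and this call was lost with treated columns only (-0.12, adjusted p = 0.0694) and without the 10 µM columns (-0.13, adjusted p = 0.0726). NDUFAF3 lay between 7.51 and 7.83 (median 7.70) in replicate 3, 7.59 and 7.83 (median 7.71) in replicate 2 and 7.79 and 8.01 (median 7.86) in replicate 1. Replicate 1 was the highest, with a difference of -0.17 for replicate 3 (adjusted p = 0.0318 in limma) and -0.15 for replicate 2 (adjusted p = 0.0392). The call for replicate 3 was lost with treated columns only (-0.17, adjusted p = 0.0653 in limma) and without the 10 µM columns (-0.17, adjusted p = 0.0715).

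The 81 treated columns of the 3 sets, which are different arrays, were also fitted together, a comparison added after the data had been seen. Each number had the same mark in all 3 sets, so the columns of a number may not be independent. The p values of the replicate comparisons rest on the spread between columns, with 1 mark per number. Of 96 members, 16 differed between replicate numbers, 12 of them subunits, against 12.4% of all probe sets (33 at an unadjusted p under 0.05, against 25.3%). With probe sets of the dimmer part of the arrays left out the count was 22 of the 87 members left, against 27.7%. With 1 probe set per gene in the fit the count was 22 of 96, against 20.1%. Between replicates 3 and 2, 10 subunits passed, and all 10 were lower in replicate 3, while 10.2% of all probe sets passed with 2742 higher and 2852 lower. They were NDUFA10 (-0.13), NDUFS7 (-0.12), NDUFB10 (-0.08), NDUFA2 (-0.08), SDHA (-0.12), SDHC (-0.08), UQCRC1 (-0.09), UQCRC2 (-0.07), COX6C (-0.07) and ATP5F1B (-0.07). The assembly factors NDUFAF5 (0.09) and NDUFAF6 (0.07) passed in the other direction.

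Between replicates 2 and 1, 7 subunits passed and all were higher in replicate 2, against 7.52% of all probe sets: UQCRC1 (0.12), SDHA (0.11), COX8A (0.10), COX5B (0.08), NDUFS7 (0.08), ATP5MF (0.07) and ATP5F1B (0.06). The paralog COX4I2 (-0.12) and the assembly factors NDUFAF5 (-0.12), SDHAF2 (-0.11) and NDUFAF2 (-0.07) were lower. This difference and that between replicates 3 and 2 both use replicate 2, and UQCRC1, SDHA, NDUFS7 and ATP5F1B passed in both. Members also share arrays, so the directions of the subunits are not independent and carry no test. Between replicates 3 and 1, 4 members passed, against 1.74%: COX8A (0.08) was higher in replicate 3, and NDUFA10 (-0.11), NDUFAF3 (-0.10) and NDUFB5 (-0.07) were lower. The NDUFA10 call was lost without the imazalil set (-0.14, adjusted p = 0.07 in limma) and without the 2,4-D set (-0.06, adjusted p = 0.554). All of these differences are smaller than a 1.25-fold change. The probe sets of NDUFS7, NDUFA2, NDUFB10, SDHA, SDHC, UQCRC2, COX5B, COX8A, ATP5MF, NDUFAF2 and NDUFAF5 are of kinds that can match more than 1 transcript.

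The differences could not be shown to depend on the chemical set. The interaction of replicate number and set called 0 of 96 members (limma, smallest adjusted p = 0.307), with 9 at an unadjusted p under 0.05 against 9.23% of all probe sets, of which 0.00366% were called. For SDHA, replicate 3 minus replicate 2 was -0.16, -0.10 and -0.12 in the fenbuconazole, imazalil and 2,4-D sets, and for COX8A, replicate 2 minus replicate 1 was 0.10, 0.09 and 0.11. Both had been chosen because they passed over these same sets, so their shared direction is no independent evidence. Other genes among the 16 changed direction between the sets in a difference that they had not been called for. For NDUFA10, replicate 2 minus replicate 1 was 0.08, 0.01 and -0.07 in the fenbuconazole, imazalil and 2,4-D sets (interaction unadjusted p = 0.00949, adjusted p = 0.37 in limma), and for UQCRC1, replicate 3 minus replicate 1 was 0.10, 0.02 and -0.06 (unadjusted p = 0.0193, adjusted p = 0.438). For ATP5PO, replicate 3 minus replicate 1 was -0.01, -0.09 and -0.13, and it did not pass over the 81 columns. Without the fenbuconazole set 11 members passed (11.4% of all probe sets), without the imazalil set 8 (5.94%) and without the 2,4-D set 4 (5.2%), of which 8, 8 and 4 were among the 16. The 4 called without the 2,4-D set were NDUFA10, SDHA, UQCRC1 and COX8A.

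**Figure D4:**
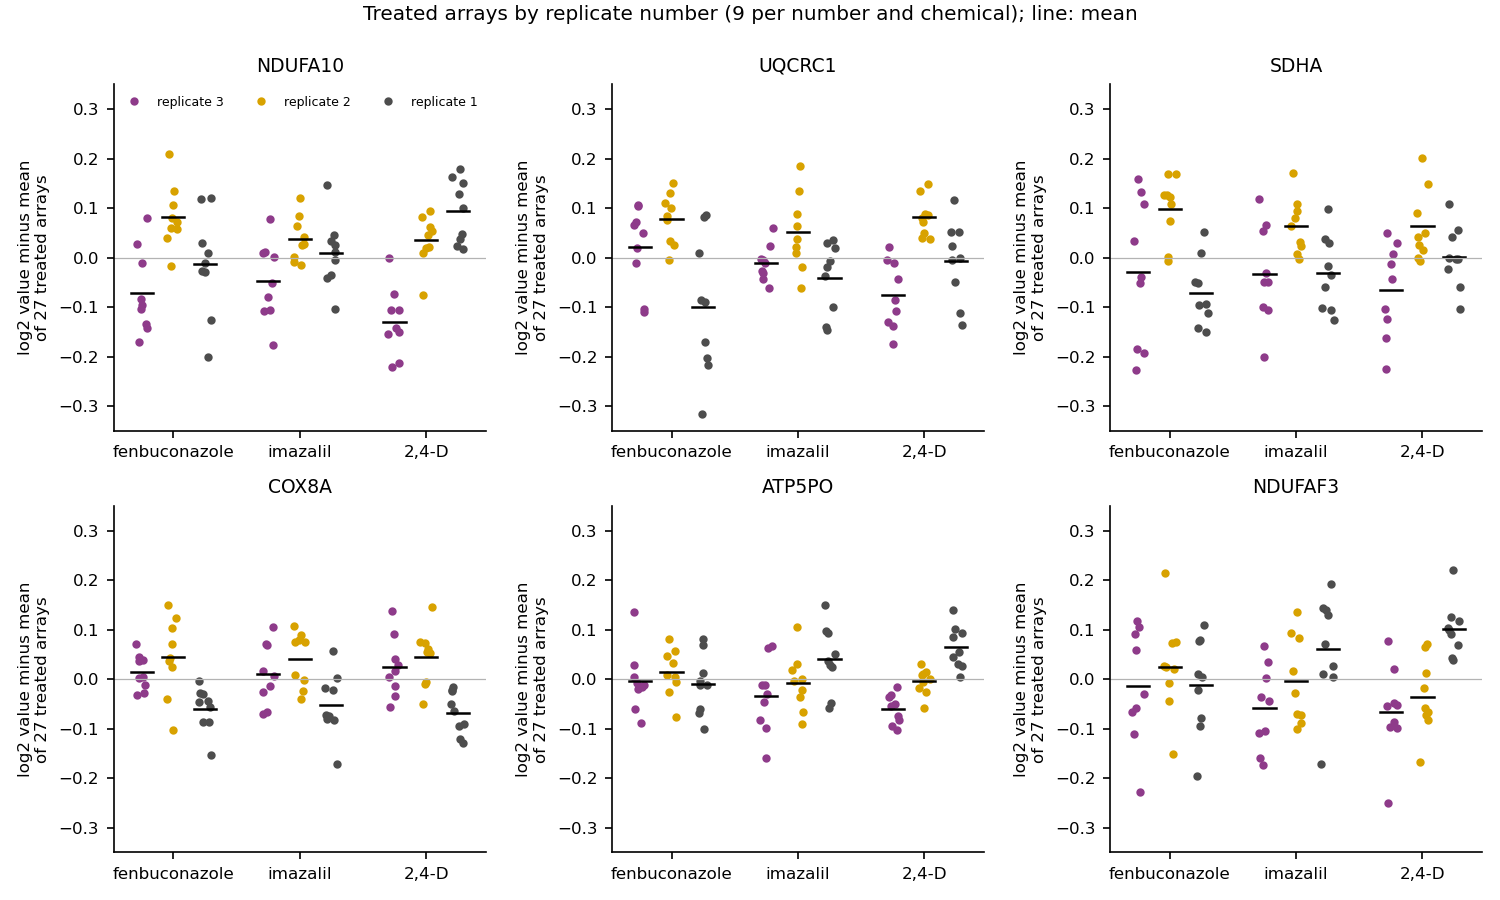
Log2 value minus the mean of the 27 treated columns of a set (vertical axis) for 6 members in every treated array, by chemical set (horizontal axis) and replicate number (colour), with a line at the mean of 9 arrays. SDHA and UQCRC1 have their highest mean in replicate 2 in every set, and COX8A has its lowest mean in replicate 1 in every set.

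RNA quality was read from the ACTB and GAPDH control probe sets, as the signal at the 3′ end minus that at the 5′ end. In the 2,4-D set the ACTB value averaged 0.53 in replicate 3, 0.485 in replicate 2 and 0.507 in replicate 1, and the GAPDH value -0.06, -0.095 and -0.0755 in the same order. In the fenbuconazole set ACTB averaged 0.335, 0.349 and 0.441 for replicates 3, 2 and 1, and in the imazalil set 0.468, 0.453 and 0.515. Their part in the differences between replicate numbers was not tested. Among the other lists over the 81 columns, 17 of 50 assembly factors, 7 of 15 biogenesis regulators, 3 of 11 tricarboxylic acid cycle genes, 3 of 18 import genes, 13 of 75 mitochondrial ribosomal proteins and 8 of 76 cytosolic ribosomal proteins differed between replicate numbers, against 12.4% of all probe sets. These lists hold 1 probe set per gene. The share called was 20.1% in a fit with 1 probe set per gene and 27.7% with dim probe sets left out. The lists were not counted in those fits. Between replicates 3 and 2, 13 of 75 mitochondrial ribosomal proteins passed, 12 higher in replicate 3 and 1 lower, against 10.2% of all probe sets with 2742 higher and 2852 lower, and the difference of this list from the subunits was not tested.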

How the data were processed

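Total RNA of A673 cells, 26000 per well, was hybridized to HT HG-U133+ PM arrays after 24 h of exposure. The authors deposited log2 values per probe set made by robust multi-array averaging in Partek (versions not given in the sources used here), normalized separately for the 30 columns of each chemical, which is why no level is set across chemicals. The values ran from 1.44 to 13.7, and all 90 columns were matched to samples by name. Depth does not apply to arrays, and their number, 3 per group, limits the precision.

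After 102 control probe sets were left out, 54613 were tested, of which 40914 had 1 symbol, 864 several and 12835 none in the platform annotation. Tests used limma 3.58.1 (lmFit, contrasts.fit, eBayes) in R 4.3.3 with data.table (version 1.17.8), fitted over all probe sets, with Benjamini-Hochberg adjustment per contrast, a threshold of 0.05 and 95% intervals. The 3 pairs of chemicals were adjusted together. The scripts were tested on simulated data first. Arrays whose DMSO values matched between sets were entered in each set's own fit. "Dim" probe sets are those below the median of the mean values.

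Members were classed by hand into complexes, and members, lists and tests were chosen with earlier results of these data known. The naming rule took members that passed (at most 10 per comparison), the highest and lowest subunit of each complex, and a fixed set of core subunits and paralogs. SDHAF4, SDHAF3, SDHAF1, NDUFA5, ATP5F1E and, at 10 µM, NDUFAF3 were named after their values had been seen. Promoters came from RefSeq (GRCh38.p14), and motifs were searched on both strands with Python 3.11.15. Figures used numpy 2.4.6, pandas 2.3.3 and matplotlib 3.10.9. Alternatives were a replicate block, leaving out replicates, dim probe sets, a second quantile normalization, equal medians, eBayes with trend and robust options, 1 probe set per gene, treated columns only and no 10 µM columns.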

Additional observations from a re-analysis of the deposited data

How the results depend on the processing

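In every alternative the concentration comparisons called 0 members (limma), including the fit with the replicate number as a block. The members were 96, or 87 in each set with dim probe sets left out. Same-numbered columns deviated together only weakly (mean r of 0.042, 0.0689 and 0.0781 in the fenbuconazole, imazalil and 2,4-D sets, with minima of -0.138, -0.0947 and -0.145), so the numbers were not taken as pairs, although 25, 30 and 30 of 30 columns correlated best with columns of their own number. The median change of the members at 10 µM fenbuconazole ranged from -0.04285 to 0.01719 when 1 replicate was left out, around -0.0096 with all arrays.

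Counts of members that differed between replicate numbers moved most. In the 2,4-D set 7 passed without the concentration groups in the model and 8 with 1 probe set per gene, against 4. The count was 18 with trend and robust options, and 13 of the 87 members left with dim probe sets left out. With trend and robust options 2 passed in the fenbuconazole set and 1 in the imazalil set, against 0. The share of all probe sets called in these fits was not counted, so these counts cannot be judged against it. Over the 81 treated columns 8 passed without the imazalil set and 4 without the 2,4-D set, against 16, and the other alternatives gave between 11 and 23. The share of all probe sets called was 5.94% without the imazalil set and 5.2% without the 2,4-D set, against 12.4%. In the other alternatives it lay between 11.4% and 27.7%, and it was 13.1% in the fit with 23 members. ATP5PO and NDUFAF3 no longer passed for replicate 3 minus 1 of the 2,4-D set with treated columns only (-0.12 and -0.17, adjusted p = 0.0694 and 0.0653 in limma) or without the 10 µM columns (-0.13 and -0.17, adjusted p = 0.0726 and 0.0715). NDUFA10 no longer passed for replicate 3 minus 1 over all treated columns without the imazalil set (-0.14, adjusted p = 0.07) or without the 2,4-D set (-0.06, adjusted p = 0.554). The cause was not tested.

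Signs were followed in the alternatives for a few named genes only, and not for every gene that passed between replicate numbers. Among the values followed, none that passed changed sign. Small values that had not passed changed sign when 1 replicate was left out. At 10 µM imazalil, SDHAF4 ranged from -0.01 to 0.15 and COX7C from -0.01 to 0.06, and at 10 µM 2,4-D COX6B2 ranged from -0.09 to 0.11. The median change of the members ranged from -0.0207 to 0.00477 with imazalil, and its difference for fenbuconazole minus imazalil from -0.0221 to 0.0067, a value that was 0.00438 after a second quantile normalization. ATP5PO in the fenbuconazole set, -0.01 for replicate 3 minus 1, was 0.01 with treated columns only. SDHAF4 at 10 µM 2,4-D kept its sign and ranged from -0.41 to -0.19, with -0.19 without replicate 3.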
